A study of Mus musculus with 20 samples.

Results

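The genes described here are those of 8 families of mouse solute carriers that move ions by exchange or cotransport, namely *Slc4*, *Slc8*, *Slc9*, *Slc12*, *Slc20*, *Slc24*, *Slc26* and *Slc34*. A gene was included when its symbol named one of these families and its normalized values summed to at least 5 over all 20 libraries, which gave 47 of the 18745 genes tested. Another 4 of the listed family members, *Slc12a3*, *Slc26a3*, *Slc26a5* and *Slc34a1*, stayed under that minimum, with no value above 3.89 in any library. RNA of the RPE-choroid, the outer eyecup that holds the retinal pigment epithelium (RPE) and the vascular choroid, was sequenced. By the study's account it came from 4 groups of 5 mice, C57BL/6 by the labels and C57BL/6J by the study's methods. They were WT mice on the vitamin A sufficient diet (VAS, 4 IU/g), WT mice on the vitamin A deficient diet (VAD, 0 IU/g), and *Stra6-/-* mice on each of these diets, every mouse having spent 12 weeks on its diet after weaning at about 28 days. STRA6 is the receptor through which the RPE takes up retinol from its carrier in blood, and the *Stra6-/-* mice carry its knockout in the whole body rather than in the RPE alone. By the study's methods each sample pooled both eyecups of 1 mouse after a dispase treatment and removal of the neural retina, and the WT mice were purchased whereas the *Stra6-/-* mice were bred in the study's own colony, so that source and genotype cannot be told apart.

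The RPE is a tight epithelium that takes chloride, bicarbonate and water from the space around the photoreceptors and passes them to the choroid. Cotransporters of sodium, potassium and chloride load its apical side, sodium-bicarbonate cotransporters and anion exchangers set its pH and carry bicarbonate, and sodium-proton exchangers extrude acid. Photoreceptors clear calcium with exchangers that use sodium and potassium together, and phosphate enters cells with sodium through the *Slc20* and *Slc34* proteins. Many of these proteins work beside carbonic anhydrases, which turn over carbon dioxide and bicarbonate, and under WNK kinases, which switch cotransport of chloride on or off.

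The values are gene counts divided by 1 size factor per library and are called normalized values. Between 13331903 and 21878614 reads per library stood behind them, with a median of 17785927. The targeted gene *Stra6* had normalized values of 2661, 2742, 2414, 2449 and 2689 in VAS WT and 564, 599, 648, 642 and 694 in VAS *Stra6-/-*. It was at 693, 1340.1, 697, 1529 and 669 in VAD WT and 2126, 1973, 2116, 2393 and 2208 in the libraries with the label VAD *Stra6-/-*. It was lower in VAS *Stra6-/-* than in VAS WT, with a log2 fold change of -2.04 (SE 0.18, adjusted p = 3.32e-08). It was higher in the libraries with the label VAD *Stra6-/-* than in VAD WT, with a log2 fold change of 1.23 (SE 0.18, adjusted p = 3.88e-06), opposite to the label if RPE markers are left aside. In replicates 1, 3 and 5 of VAD WT it was at 693, 697 and 669, next to the VAS *Stra6-/-* libraries and below every VAS WT library, and this holds for every VAD WT value below. Adjusted p-values are from limma on log2(value + 1), corrected over all 18745 genes by the Benjamini-Hochberg method. Log2(value + 1) is a scale on which changes of lowly expressed genes come out too small. SE stands for the standard error of a log2 fold change. Replicates 2 and 4 of VAD WT stood apart from replicates 1, 3 and 5: 6 rod markers summed to 267634 to 270184 against 101751 to 105013, 5 erythrocyte markers to 44884 to 45389 against 3175 to 3373, and 7 markers of surface epithelium (skin and cornea keratins among them) to 271646 to 272038 against 777249 to 804645. *Xist*, the RNA that coats the silenced X chromosome in female cells, spanned 7.69 to 38.4 in VAS WT and 174 to 11767 in VAD WT. It spanned 15320.2 to 18052 in VAS *Stra6-/-* and 3569.8 to 4280 in the libraries with the label VAD *Stra6-/-*. *Ddx3y*, a gene of the Y chromosome, spanned 981 to 1193, 75.2 to 1133, 0 to 1.02 and 741 to 970 in the same order. Sex-linked transcripts thus differed between the groups and within VAD WT, and sex and genotype cannot be told apart on the VAS diet. Every library with the label VAD *Stra6-/-* held both transcripts at these levels. A library of 1 male or 1 female would not hold both at such levels, so these libraries may not be separate single mice. Whether each held RNA of 1 mouse was not tested. If libraries share mice, the standard errors and adjusted p-values below are too small as measures of the spread between mice. The 7 RPE markers, all above 0 in every library, summed to 100768 to 116604 in VAS WT, 106787 to 112163 in VAS *Stra6-/-*, 27312 to 51682 in VAD WT and 461320.5 to 502051 in the libraries with the label VAD *Stra6-/-*. Surface epithelium markers summed to 421216 to 512483, 619830.2 to 643638, 271646 to 804645 and 15705 to 21218 in the same order. *Stra6* is expressed in the RPE, and its values above are not relative to the RPE markers. The RPE sums of the VAS groups overlapped, whereas those of replicates 1, 3 and 5 of VAD WT were 27312 to 29302. Where RPE sums differ this much, the level of *Stra6* by itself cannot tell whether a label holds. Between the libraries with the label VAD *Stra6-/-* and VAD WT, the RPE markers had a mean log2 fold change of 3.48, above the 1.23 of *Stra6*. Between the VAS groups that mean was 0.14, where *Stra6* was at -2.04. Relative to these markers, *Stra6* was thus lower in each *Stra6-/-* group than in WT on the same diet, the direction of the labels. That relative difference was not tested. In bulk tissue, fewer cells of a type and less RNA per cell cannot be told apart.

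Levels were compared between genes per kilobase of exon. In VAS WT, 17 of the 47 genes had at least 100 normalized counts per kb, 14 had 10 to 100, 8 had 1 to 10 and 8 had under 1. The highest level was that of *Slc24a1*, the sodium-calcium-potassium exchanger of rod outer segments, at 703 per kb. It was followed by *Slc4a5* at 567, *Slc4a2* at 422, *Slc12a2* at 416, *Slc34a2* at 387 and *Slc12a5* at 372 per kb. Those 6 genes span carriers known from photoreceptors, epithelia and neurons. Among the lowest were the kidney cotransporter *Slc12a1* at 0.0681 per kb and the erythrocyte anion exchanger *Slc4a1* at 0.189 per kb, and *Slc9a3* and *Slc34a3* were at 0 in every VAS WT library. Means are given ± SD over n = 5 libraries. Summed per kb, the 10 *Slc4* genes came to 1481 ± 32.6 in VAS WT, the 8 *Slc12* genes to 1460.3 ± 48.4 and the 7 sodium-calcium exchangers to 906 ± 64.4.

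**Figure D1:**
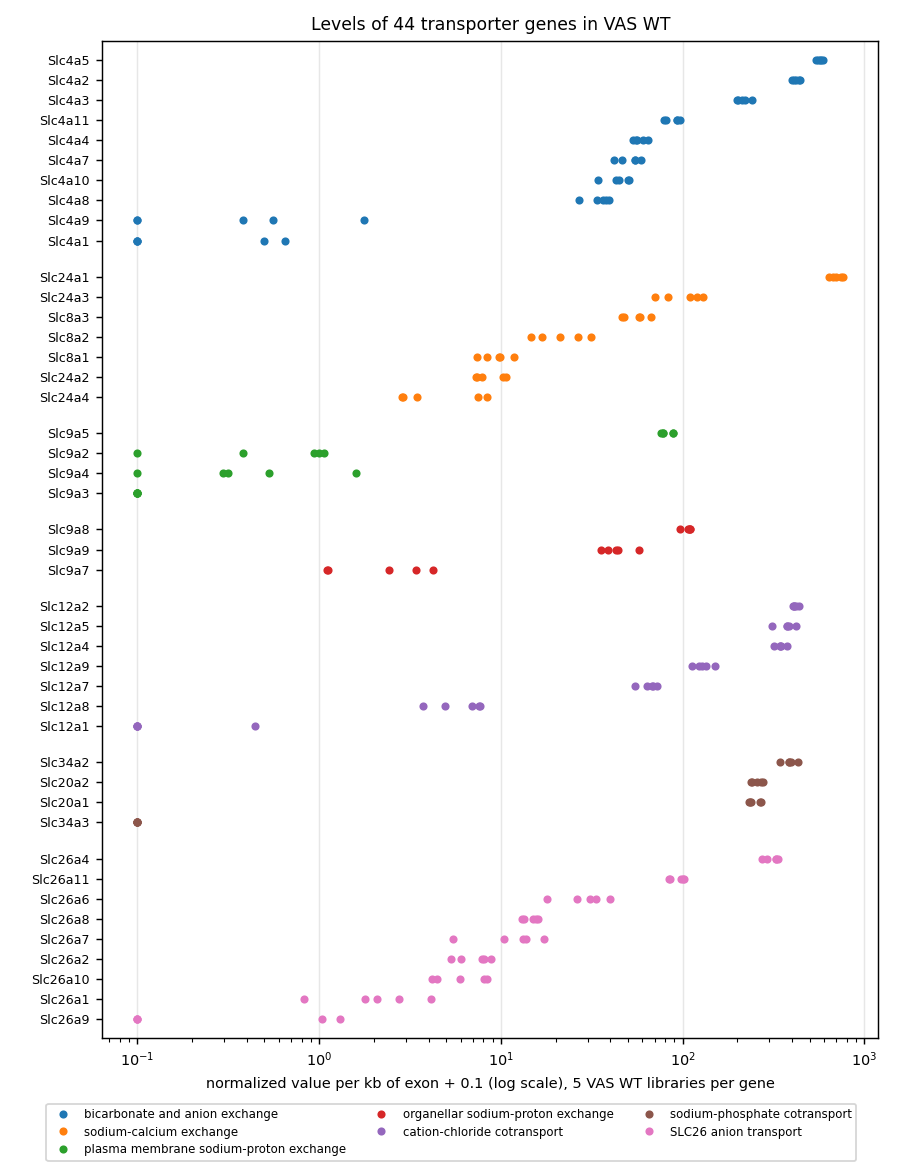
Normalized value per kb of exon plus 0.1, on a log axis, of each of 44 genes in the 5 VAS WT libraries, 1 point per library, grouped and coloured by role; points at 0.1 are zeros. *Slc24a1* and *Slc4a5* lie highest, and *Slc9a3* and *Slc34a3* lie at 0 in all 5 libraries.

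In the libraries with the label VAD *Stra6-/-* the bicarbonate carriers *Slc4a2*, *Slc4a4* and *Slc4a5*, the anion exchangers *Slc26a4* and *Slc26a7* and the phosphate carrier *Slc20a2* rose, and the phosphate cotransporter *Slc34a2* and the corneal transporter *Slc4a11* fell, against both VAS *Stra6-/-* and VAD WT. Against VAS *Stra6-/-*, 16 of the 47 genes passed as higher and 14 as lower, beside 24.5% and 28.9% of all genes tested. Against VAD WT the counts were again 16 and 14, beside 26.3% and 29.7%. The median log2 fold change over the members was -0.15 against VAS *Stra6-/-*, where that of all genes was -0.07, and -0.03 against VAD WT, where that of all genes was -0.05. The share of members that passed as lower, 29.8% in both comparisons, was near that of all genes, and the share that passed as higher, 34%, was above it. Without replicates 2 and 4 of VAD WT, the comparison with VAD WT gave 20 higher and 12 lower members, beside 30.8% and 32.6% of all genes.

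VAS *Stra6-/-* differed from VAS WT in fewer of these genes. *Slc34a3*, *Slc26a2* and *Slc12a2* rose and *Slc9a5*, *Slc4a3*, *Slc8a3*, *Slc26a11*, *Slc9a8* and *Slc12a9* fell, 3 and 6 of 47 genes, beside 15.9% of all genes higher and 10.8% lower. With replicates 2 and 4 of VAD WT out of the fit, which alters only the shared estimate of the spread here, 7 members passed as higher and 12 as lower, beside 22.5% and 17.6% of all genes. VAD WT differed from VAS WT mainly by falls. *Slc26a4*, *Slc4a7*, *Slc4a5*, *Slc34a2*, *Slc4a4*, *Slc4a2*, *Slc20a2*, *Slc26a11* and *Slc12a2* fell and *Slc12a9* rose, 9 and 1 of 47 genes, beside 5.52% of all genes lower and 3.29% higher. The median over the members was -0.16, where that of all genes was 0.00. Without replicates 2 and 4 the same comparison gave 17 lower and 7 higher members, beside 20.4% and 17.7% of all genes, and of the 10 genes passing with all libraries only *Slc34a2* and *Slc26a11* no longer passed.

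**Figure D2:**
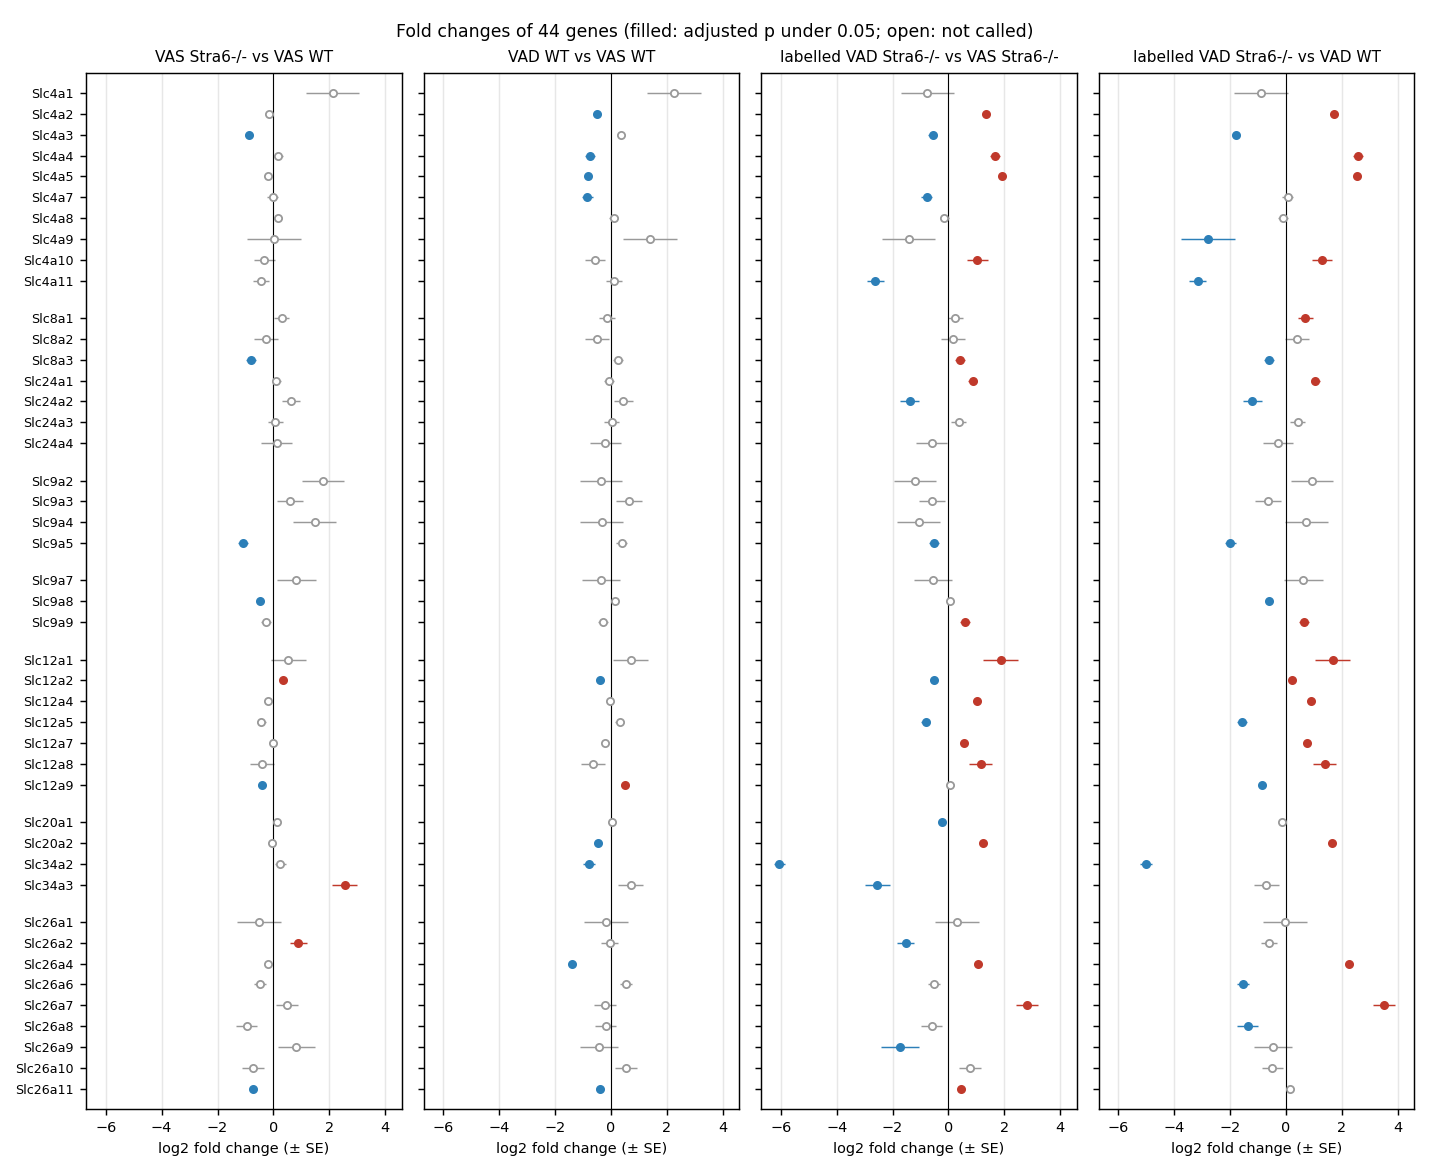
Log2 fold change with its standard error for each of 44 genes (rows, ordered by family) in 4 comparisons, filled where the adjusted p was under 0.05 (red higher, blue lower) and open where it was not. The spread of filled points is narrow in the left pair of panels and wide in the right pair, where *Slc34a2* lies at -6.05 and -5.02.

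The proximal promoters of 3 of these genes are shown because the results turn on them: *Slc4a5* and *Slc26a4*, which fell in VAD WT and rose in the libraries with the label VAD *Stra6-/-*, and *Slc34a2*, which fell in both. The windows are from RefSeq on GRCm38.p6 and hold 250 bases before and 50 after the annotated start, written 5′ to 3′ on the strand of the gene, and 34 of the 47 genes had at least 1 such window. Capitals mark a TATA sequence (TATAAA), read on both strands. The *Slc4a5* window is chr6:83237125-83237424 (plus strand), that of *Slc26a4* chr12:31559935-31560234 (minus strand) and that of *Slc34a2* chr5:53049103-53049402 (plus strand).
Slc4a5: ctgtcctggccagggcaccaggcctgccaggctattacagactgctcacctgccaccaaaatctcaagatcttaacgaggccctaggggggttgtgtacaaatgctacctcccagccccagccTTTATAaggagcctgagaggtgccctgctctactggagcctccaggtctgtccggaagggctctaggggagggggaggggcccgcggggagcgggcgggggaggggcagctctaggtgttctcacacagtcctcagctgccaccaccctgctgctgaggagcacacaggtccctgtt
Slc26a4: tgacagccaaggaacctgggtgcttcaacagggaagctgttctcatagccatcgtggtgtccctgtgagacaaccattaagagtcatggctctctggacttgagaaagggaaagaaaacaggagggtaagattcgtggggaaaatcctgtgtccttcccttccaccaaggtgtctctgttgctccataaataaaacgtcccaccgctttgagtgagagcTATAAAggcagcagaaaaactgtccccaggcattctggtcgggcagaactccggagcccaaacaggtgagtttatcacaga
Slc34a2: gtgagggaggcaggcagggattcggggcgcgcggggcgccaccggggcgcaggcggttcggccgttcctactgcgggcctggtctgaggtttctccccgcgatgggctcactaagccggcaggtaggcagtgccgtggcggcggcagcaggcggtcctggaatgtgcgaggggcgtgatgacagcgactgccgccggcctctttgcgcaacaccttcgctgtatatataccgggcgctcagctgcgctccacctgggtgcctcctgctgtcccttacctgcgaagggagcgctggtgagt
The TATA sequence of *Slc26a4* begins at position -31 from the start on the strand of the gene, and that of *Slc4a5* at position -127 on the opposite strand. *Slc34a2* has no TATAAA in this window, which does hold the run TATATATA, letters that were not searched for. The starts of *Slc4a5* and *Slc34a2* in RefSeq lie inside the spans that the GENCODE M21 annotation gives these genes. Among all 32851 windows of this length, 13.6% hold TATAAA on either strand. None of the 3 windows holds the palindromic E-box CACGTG, which 7.15% of all windows hold, the OTX-type sequence TAATCC, held by 7.06%, or the nuclear receptor half-site AGGTCA, held by 16.3%. The matches describe these letters in these windows alone.

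Of the 10 *Slc4* genes, 4 rose and 3 fell in the libraries with the label VAD *Stra6-/-* against VAS *Stra6-/-*, beside 24.5% and 28.9% of all genes. *Slc4a5* (NBCe2, an electrogenic sodium-bicarbonate cotransporter, chromosome 6 from 83219828 to 83304945 of GRCm38 in GENCODE M21, as for all gene positions) had normalized values of 3234, 3420.3, 3159, 3309 and 3329 in VAS WT and 2119.7, 1496, 1979, 1635 and 2236 in VAD WT. *Slc4a5* was at 2954, 2884, 2853, 2835 and 2869 in VAS *Stra6-/-* and at 10751, 10862, 11319, 11675 and 10125 in the libraries with the label VAD *Stra6-/-*. All 5 VAD WT libraries lay below every library on the VAS diet, and all 5 labelled VAD *Stra6-/-* lay above every other library. Its mean of 10946 ± 589 in those libraries was 3.80 times that of VAS *Stra6-/-*, a log2 fold change of 1.92 (SE 0.09, adjusted p = 4.46e-14), and 5.78 times that of VAD WT, a log2 fold change of 2.55 (SE 0.09, adjusted p = 7.68e-16). Against VAS WT it fell in VAD WT, with a log2 fold change of -0.81 (SE 0.09, adjusted p = 1.45e-06). VAS *Stra6-/-* and VAS WT did not overlap either, but the log2 fold change of -0.19 did not pass with all 20 libraries (adjusted p = 0.105), and it passed without replicates 2 and 4 of VAD WT (adjusted p = 0.000696).

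*Slc4a4* (NBCe1, the electrogenic sodium-bicarbonate cotransporter known from the apical RPE and kidney, chromosome 5 from 88886818 to 89239653) had values of 655, 601, 700.3, 609 and 577 in VAS WT and 301, 534, 261, 615 and 286 in VAD WT. *Slc4a4* was at 733, 736, 751, 638 and 666 in VAS *Stra6-/-* and at 2099.7, 2346, 2396, 2252 and 2090.1 in the libraries with the label VAD *Stra6-/-*. It was highest in every library with the label VAD *Stra6-/-*, with a log2 fold change of 1.67 (SE 0.17, adjusted p = 4.04e-08) against VAS *Stra6-/-* and of 2.57 (SE 0.17, adjusted p = 4.33e-11) against VAD WT. In VAD WT, replicates 1, 3 and 5 were the lowest libraries and only replicate 4 reached into the range of VAS WT, and the log2 fold change of -0.74 (SE 0.17, adjusted p = 0.00795) became -1.15 (adjusted p = 1.76e-10) without replicates 2 and 4. *Slc4a2* (AE2, a chloride-bicarbonate exchanger, chromosome 5 from 24423837 to 24440950) was at 3389.9, 3637, 3327, 3514 and 3682 in VAS WT and 2530.0, 2261, 2605, 2345 and 2592 in VAD WT. *Slc4a2* was at 3276, 3043, 2864, 3333 and 3309 in VAS *Stra6-/-* and at 7999.7, 7957, 8248, 8254 and 7949 in the libraries with the label VAD *Stra6-/-*. It followed the order of *Slc4a5*, with VAD WT lowest and the libraries with the label VAD *Stra6-/-* highest, without overlap. It had a log2 fold change of -0.51 (SE 0.06, adjusted p = 6.23e-06) in VAD WT against VAS WT and 1.35 (SE 0.06, adjusted p = 4.11e-14) in the libraries with the label VAD *Stra6-/-* against VAS *Stra6-/-*. Exons of *Fastk* on the opposite strand cover 13.7% of its exon length, and the sources used here do not say whether counting kept strands apart.

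*Slc4a10* (NBCn2, a sodium-bicarbonate carrier of neurons and choroid plexus, chromosome 2 from 62046462 to 62326730) had values of 218, 276, 324, 319 and 285 in VAS WT and 100.2, 484, 112, 477 and 93.6 in VAD WT. *Slc4a10* was at 231, 249, 250.1, 215 and 188 in VAS *Stra6-/-* and at 489.7, 492, 459, 523 and 375 in the libraries with the label VAD *Stra6-/-*. It rose in these libraries against VAS *Stra6-/-*, with a log2 fold change of 1.04 (SE 0.36, adjusted p = 0.0194). Its 2 high VAD WT values were those of replicates 2 and 4, so that the log2 fold change against VAD WT, 1.29 (SE 0.36, adjusted p = 0.00445), was 2.18 without them, and the comparison was not past the threshold with edgeR on reads recovered from 19 libraries (adjusted p = 0.0745) or with only the 2 groups in the fit (adjusted p = 0.0639).

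*Slc4a3* and *Slc4a11* moved the other way. *Slc4a3* (AE3, the anion exchanger of excitable cells, chromosome 1 from 75546266 to 75562172) was at 2073, 1893, 1735, 1716 and 1813 in VAS WT and 2841, 1679, 3092, 1590.2 and 3059.7 in VAD WT. *Slc4a3* was at 1057, 933, 908, 1011 and 1108 in VAS *Stra6-/-* and at 677, 683, 675, 715 and 632 in the libraries with the label VAD *Stra6-/-*. Both *Stra6-/-* groups were below both WT groups in every library. Its log2 fold change came to -0.88 (SE 0.15, adjusted p = 0.000138) in VAS *Stra6-/-* against VAS WT and -1.80 (SE 0.15, adjusted p = 1.37e-09) in the libraries with the label VAD *Stra6-/-* against VAD WT. *Slc4a11* (a transporter that the corneal endothelium needs to stay clear, chromosome 2 from 130684113 to 130697519) had values of 463, 482, 467, 404 and 394 in VAS WT and 652, 222, 761, 335 and 643 in VAD WT. *Slc4a11* was at 321, 289, 377, 306 and 326 in VAS *Stra6-/-* and at 65.5, 64.0, 66.5, 58.8 and 22.8 in the libraries with the label VAD *Stra6-/-*. The last group was far below all others, with a log2 fold change of -2.61 (SE 0.29, adjusted p = 1.42e-07) against VAS *Stra6-/-* and -3.16 (SE 0.29, adjusted p = 8.02e-09) against VAD WT, the latter -3.69 without replicates 2 and 4. Within VAD WT, replicates 2 and 4 were again the low libraries.

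Of the other *Slc4* genes, the electroneutral sodium-bicarbonate cotransporter *Slc4a7* averaged 779 in VAS WT, 461 in VAD WT, 766 in VAS *Stra6-/-* and 447 in the libraries with the label VAD *Stra6-/-*. It fell with the VAD diet in both genotypes, with a log2 fold change of -0.85 (SE 0.20, adjusted p = 0.00737) in WT and with a log2 fold change of -0.77 (SE 0.20, adjusted p = 0.00232) in *Stra6-/-*. In VAD WT its replicates 2 and 4 were at 674 and 692 and the others at most at 324, and without replicates 2 and 4 the WT value was -1.31. *Slc4a8*, a sodium-driven chloride-bicarbonate exchanger, averaged between 452 and 503 in the 4 groups and passed in none of the 4 comparisons. Read as a sum per kb, the family stood at 1481 ± 32.6 in VAS WT, 1164 ± 128 in VAD WT, 1249 ± 30.4 in VAS *Stra6-/-* and 3292 ± 139 in the libraries with the label VAD *Stra6-/-*.

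Of the 9 *Slc26* anion transporters, *Slc26a4* and *Slc26a7* rose in the libraries with the label VAD *Stra6-/-* against both other groups compared. *Slc26a4* (pendrin, an exchanger of chloride, iodide and bicarbonate, chromosome 12 from 31519827 to 31559969) had values of 908, 846, 1044, 1015 and 1014 in VAS WT and 337, 383, 360.4, 359 and 370.4 in VAD WT. *Slc26a4* was at 853, 809, 894, 804 and 838 in VAS *Stra6-/-* and at 1466, 1691, 1847, 1737 and 1949.8 in the libraries with the label VAD *Stra6-/-*. The 5 VAD WT libraries lay within a narrow band, replicates 2 and 4 included, below all other groups. The log2 fold change in VAD WT against VAS WT was -1.41 (SE 0.08, adjusted p = 1.11e-10), a mean 2.67 times lower and the furthest from 0 among the 10 members that passed there, and -1.43 without replicates 2 and 4. In the libraries with the label VAD *Stra6-/-* it was 1.04 (SE 0.08, adjusted p = 2.39e-10) against VAS *Stra6-/-* and 2.25 (SE 0.08, adjusted p = 1.23e-15) against VAD WT. *Slc26a7* (an anion exchanger and chloride channel of stomach, kidney and thyroid, chromosome 4 from 14502430 to 14621805) was at 56.0, 93.2, 29.2, 71.2 and 74.1 in VAS WT and 18.9, 95.8, 25.5, 113 and 68.9 in VAD WT. *Slc26a7* was at 80.2, 76.8, 89.5, 98.8 and 85.2 in VAS *Stra6-/-* and at 560.2, 641, 616, 826 and 439.7 in the libraries with the label VAD *Stra6-/-*. Its lowest value in the last group was above 3 times its highest value elsewhere. Its log2 fold change was 2.80 (SE 0.39, adjusted p = 3.2e-06) against VAS *Stra6-/-* and 3.52 (SE 0.39, adjusted p = 1.26e-07) against VAD WT.

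*Slc26a2* (a sulfate transporter that cartilage needs for its proteoglycans, chromosome 18 from 61192919 to 61211612) had values of 98.2, 108, 72.9, 95.6 and 64.3 in VAS WT and 51.9, 136, 58.2, 192 and 52.0 in VAD WT. *Slc26a2* was at 154, 168, 145, 186 and 152 in VAS *Stra6-/-* and at 59.4, 47.8, 47.1, 56.2 and 65.1 in the libraries with the label VAD *Stra6-/-*. It was higher in VAS *Stra6-/-* than in VAS WT without overlap, with a log2 fold change of 0.89 (SE 0.30, adjusted p = 0.0322), though the adjusted p ran from 0.0516 to 0.0849 when replicate 3 or 5 of VAS WT or replicate 1, 2, 4 or 5 of VAS *Stra6-/-* was left out. It then fell in the libraries with the label VAD *Stra6-/-*, with a log2 fold change of -1.54 (SE 0.30, adjusted p = 0.000176) against VAS *Stra6-/-*. *Slc26a6* (an exchanger of chloride, oxalate and bicarbonate, chromosome 9 from 108853283 to 108913049) was at 214, 97.1, 181, 168 and 141 in VAS WT and 259, 171, 217, 208 and 294 in VAD WT. *Slc26a6* was at 121, 94.4, 106, 122 and 118 in VAS *Stra6-/-* and at 58.4, 94.7, 63.5, 74.6 and 109 in the libraries with the label VAD *Stra6-/-*. Only its comparison between the libraries with the label VAD *Stra6-/-* and VAD WT passed with all 20 libraries, with no overlap and a log2 fold change of -1.52 (SE 0.22, adjusted p = 3.58e-06). *Slc26a11*, a sulfate transporter, averaged 339, 259, 206 and 283 in VAS WT, VAD WT, VAS *Stra6-/-* and the libraries with the label VAD *Stra6-/-*. It fell in VAS *Stra6-/-* against VAS WT, with a log2 fold change of -0.72 (SE 0.12, adjusted p = 0.000131), fell in VAD WT, with a log2 fold change of -0.39 (SE 0.12, adjusted p = 0.0456) and rose in the libraries with the label VAD *Stra6-/-* against VAS *Stra6-/-*, with a log2 fold change of 0.46 (SE 0.12, adjusted p = 0.00312). *Slc26a8*, known from testis, averaged 73.0 in VAD WT and 23.9 in the libraries with the label VAD *Stra6-/-*, with overlapping values and a log2 fold change of -1.36 (SE 0.38, adjusted p = 0.00412).

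Among the 7 sodium-calcium exchangers, *Slc24a1* rose and *Slc24a2* fell in the libraries with the label VAD *Stra6-/-*. *Slc24a1* (NCKX1, chromosome 9 from 64922861 to 64951607) had values of 3512, 3636, 3979, 3335 and 3870.4 in VAS WT and 2618, 5332, 2533, 5354 and 2752 in VAD WT. *Slc24a1* was at 3995, 4034, 3799, 3913 and 3996 in VAS *Stra6-/-* and at 6867, 7323, 7101, 7715 and 7233 in the libraries with the label VAD *Stra6-/-*. All 5 libraries of the last group were above the other 15. It had a log2 fold change of 0.88 (SE 0.17, adjusted p = 0.000122) against VAS *Stra6-/-* and 1.05 (SE 0.17, adjusted p = 1.38e-05) against VAD WT, or 1.46 without replicates 2 and 4 of VAD WT, which were the high libraries of that group. *Slc24a2* (NCKX2 of cones and neurons, chromosome 4 from 86983124 to 87230477) was at 87.4, 124, 88.5, 129 and 94.6 in VAS WT and 114, 248, 61.0, 312 and 104 in VAD WT. *Slc24a2* was at 151, 165, 197, 144 and 149 in VAS *Stra6-/-* and at 60.5, 79.4, 59.4, 85.1 and 33.8 in the libraries with the label VAD *Stra6-/-*. Against VAS *Stra6-/-* it fell with a log2 fold change of -1.39 (SE 0.34, adjusted p = 0.00154) without overlap. Its log2 fold change against VAD WT, -1.21 (SE 0.34, adjusted p = 0.0045), was -0.56 (adjusted p = 0.0824) without replicates 2 and 4, which were the high libraries.

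*Slc8a3*, a sodium-calcium exchanger of muscle and brain, averaged 295 in VAS WT and 169 in VAS *Stra6-/-*, without overlap and with a log2 fold change of -0.79 (SE 0.17, adjusted p = 0.00167). In the libraries with the label VAD *Stra6-/-* it averaged 229, higher than VAS *Stra6-/-*, with a log2 fold change of 0.42 (SE 0.17, adjusted p = 0.0452) and lower than VAD WT, with a log2 fold change of -0.61 (SE 0.17, adjusted p = 0.00476), the last with an adjusted p of 0.082 without replicates 2 and 4. The cardiac and widely expressed *Slc8a1* averaged 181 in VAD WT and 256 in the libraries with the label VAD *Stra6-/-*, with overlap and a log2 fold change of 0.69 (SE 0.27, adjusted p = 0.0379), which was 1.27 without replicates 2 and 4. *Slc8a2*, *Slc24a3* and *Slc24a4* passed in none of the 4 comparisons with all 20 libraries. *Slc24a3*, an exchanger of many tissues, averaged 466 ± 113 in VAS WT, and in VAD WT its replicates 2 and 4, at 863 and 900.4, were far above the other 3, the highest of which was 321.

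The sodium-proton exchangers of the plasma membrane include *Slc9a5*, which was lower in both *Stra6-/-* groups. *Slc9a5* (an exchanger best known from brain, chromosome 8 from 105348843 to 105369881) had values of 410.4, 462, 409, 398 and 461 in VAS WT and 803, 405, 575, 456 and 629 in VAD WT. *Slc9a5* was at 200.1, 167, 213, 213 and 208 in VAS *Stra6-/-* and at 187, 182, 138, 126 and 88.8 in the libraries with the label VAD *Stra6-/-*. Both *Stra6-/-* groups were below both WT groups in every library, as for *Slc4a3*. Its log2 fold change came to -1.10 (SE 0.19, adjusted p = 0.000135) in VAS *Stra6-/-* against VAS WT and -1.99 (SE 0.19, adjusted p = 8.47e-09) in the libraries with the label VAD *Stra6-/-* against VAD WT. The smaller difference between the *Stra6-/-* groups, -0.51 (SE 0.19, adjusted p = 0.0245), had overlapping values, and its adjusted p ran from 0.0505 to 0.0913 when replicate 3 or 4 of VAS *Stra6-/-* or replicate 4 or 5 of the libraries with the label VAD *Stra6-/-* was left out. The epithelial exchangers *Slc9a2*, *Slc9a3* and *Slc9a4* had no value above 21.5 in any library.

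The exchangers of endosomes and Golgi include *Slc9a7*, *Slc9a8* and *Slc9a9*. *Slc9a9*, an endosomal exchanger, averaged 203 in VAS *Stra6-/-* and 318 in the libraries with the label VAD *Stra6-/-*, a log2 fold change of 0.60 (SE 0.18, adjusted p = 0.00666), and rose against VAD WT, with a log2 fold change of 0.63 (SE 0.18, adjusted p = 0.00442), with overlap in both. *Slc9a8* of the Golgi averaged 966 in VAS WT, 1094 in VAD WT, 693 in VAS *Stra6-/-* and 717 in the libraries with the label VAD *Stra6-/-*. Like *Slc9a5* it was lower in each *Stra6-/-* group than in the WT group on the same diet, with a log2 fold change of -0.48 (SE 0.10, adjusted p = 0.00145) on VAS and with a log2 fold change of -0.59 (SE 0.10, adjusted p = 4.88e-05) on VAD. The X-linked *Slc9a7* had no value above 24.5 in any library.

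The cation-chloride cotransporters hold *Slc12a2*, which brings chloride into cells, and the potassium-chloride cotransporters, *Slc12a4*, *Slc12a5* and *Slc12a7* among them, which let it out. *Slc12a4* (KCC1, of most tissues, chromosome 8 from 105943590 to 105966097) had values of 1613, 1365, 1477, 1492 and 1467 in VAS WT and 1292, 1482, 1386, 1669 and 1363 in VAD WT. *Slc12a4* was at 1265, 1294, 1277, 1511 and 1204 in VAS *Stra6-/-* and at 2402, 2595, 2805, 2488 and 2958 in the libraries with the label VAD *Stra6-/-*. The last group lay above every other library, with a log2 fold change of 1.02 (SE 0.08, adjusted p = 4.84e-10) against VAS *Stra6-/-* and with a log2 fold change of 0.88 (SE 0.08, adjusted p = 4.91e-09) against VAD WT. *Slc12a5* (KCC2, the chloride extruder of neurons, chromosome 2 from 164960802 to 164999731) was at 2872, 3122, 2785, 2304 and 2786 in VAS WT and 2489, 4702, 2755, 5248 and 2831 in VAD WT. *Slc12a5* was at 2133, 2051, 1929, 2034 and 2060.0 in VAS *Stra6-/-* and at 1159.7, 1316, 1161, 1327 and 881 in the libraries with the label VAD *Stra6-/-*. It was lowest in every library with the label VAD *Stra6-/-*, with a log2 fold change of -0.82 (SE 0.17, adjusted p = 0.000241) against VAS *Stra6-/-* and with a log2 fold change of -1.57 (SE 0.17, adjusted p = 5.17e-08) against VAD WT, or -1.22 without the high replicates 2 and 4.

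*Slc12a7* (KCC4) rose beside *Slc12a4*, from 821 in VAS *Stra6-/-* to 1217 in the libraries with the label VAD *Stra6-/-*, with a log2 fold change of 0.57 (SE 0.11, adjusted p = 0.000195). *Slc12a2* (NKCC1, of the apical RPE) averaged 4544 ± 156 in VAS WT, 3489.7 ± 171 in VAD WT, 5801 ± 174 in VAS *Stra6-/-* and 4016 ± 191 in the libraries with the label VAD *Stra6-/-*. These small differences passed in all 4 comparisons, with overlapping values only between the VAD groups: 0.35 (SE 0.05, adjusted p = 5.09e-05) between the VAS groups, -0.38 (SE 0.05, adjusted p = 7.82e-05) with the VAD diet in WT, -0.53 (SE 0.05, adjusted p = 3.59e-08) with it in *Stra6-/-* and 0.20 (SE 0.05, adjusted p = 0.00327) between the VAD groups. *Slc12a9*, whose substrate is less clear, averaged 652, 932, 486 and 508 in VAS WT, VAD WT, VAS *Stra6-/-* and the libraries with the label VAD *Stra6-/-*. It was the 1 member that rose in VAD WT against VAS WT, with a log2 fold change of 0.49 (SE 0.13, adjusted p = 0.0174), and it did not pass there without replicate 4 of VAS WT or without replicate 5 of VAD WT. The low *Slc12a8* was at 14.2 to 27.0 in VAS *Stra6-/-* and 29.0 to 56.8 in the libraries with the label VAD *Stra6-/-*, a log2 fold change of 1.15 (SE 0.42, adjusted p = 0.0269). As a sum per kb the family stood between 1426 and 1508 in the 4 groups.

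The phosphate carriers *Slc20a2* and *Slc34a2* moved in opposite directions in the libraries with the label VAD *Stra6-/-*. *Slc34a2* (NaPi-IIb, the sodium-phosphate cotransporter of lung and gut epithelium, chromosome 5 from 53038081 to 53071664) had values of 2168, 1979, 1709.9, 1927 and 1916 in VAS WT and 1494, 779, 1579, 743 and 1319 in VAD WT. *Slc34a2* was at 2258, 2287, 2276, 2223 and 2479.7 in VAS *Stra6-/-* and at 56.4, 27.1, 28.7, 26.3 and 38.0 in the libraries with the label VAD *Stra6-/-*. In the last group its mean was 65.3 times lower than in VAS *Stra6-/-*, or a log2 fold change of -6.05 (SE 0.20, adjusted p = 4.87e-16), and 33.5 times lower than in VAD WT, a log2 fold change of -5.02 (SE 0.20, adjusted p = 1.38e-14). These were the changes furthest from 0 among the 47 genes in both comparisons. In VAD WT it was lower than in VAS WT, with a log2 fold change of -0.78 (SE 0.20, adjusted p = 0.0178), with replicates 2 and 4 lowest, and without them the log2 fold change was -0.41 (adjusted p = 0.058). Without replicate 1 of VAS WT it was -0.74 (adjusted p = 0.0503). *Slc20a2* (PiT-2, a phosphate carrier of most tissues, chromosome 8 from 22476788 to 22569612) was at 1491, 1473, 1717, 1587 and 1681 in VAS WT and 1085, 1070.2, 1324, 1101 and 1204 in VAD WT. *Slc20a2* was at 1447, 1582, 1595, 1505 and 1529.8 in VAS *Stra6-/-* and at 3658, 3724, 3555, 3836 and 3357 in the libraries with the label VAD *Stra6-/-*. VAD WT was below both VAS groups and the libraries with the label VAD *Stra6-/-* above all, without overlap. Its log2 fold change was -0.46 (SE 0.07, adjusted p = 9.67e-05) in VAD WT against VAS WT and 1.24 (SE 0.07, adjusted p = 1.22e-12) in the libraries with the label VAD *Stra6-/-* against VAS *Stra6-/-*. Its paralog *Slc20a1* averaged from 1296 to 1527 in the 4 groups, and passed only between the *Stra6-/-* groups, with a log2 fold change of -0.24 (SE 0.07, adjusted p = 0.00476) with overlapping values.

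**Figure D3:**
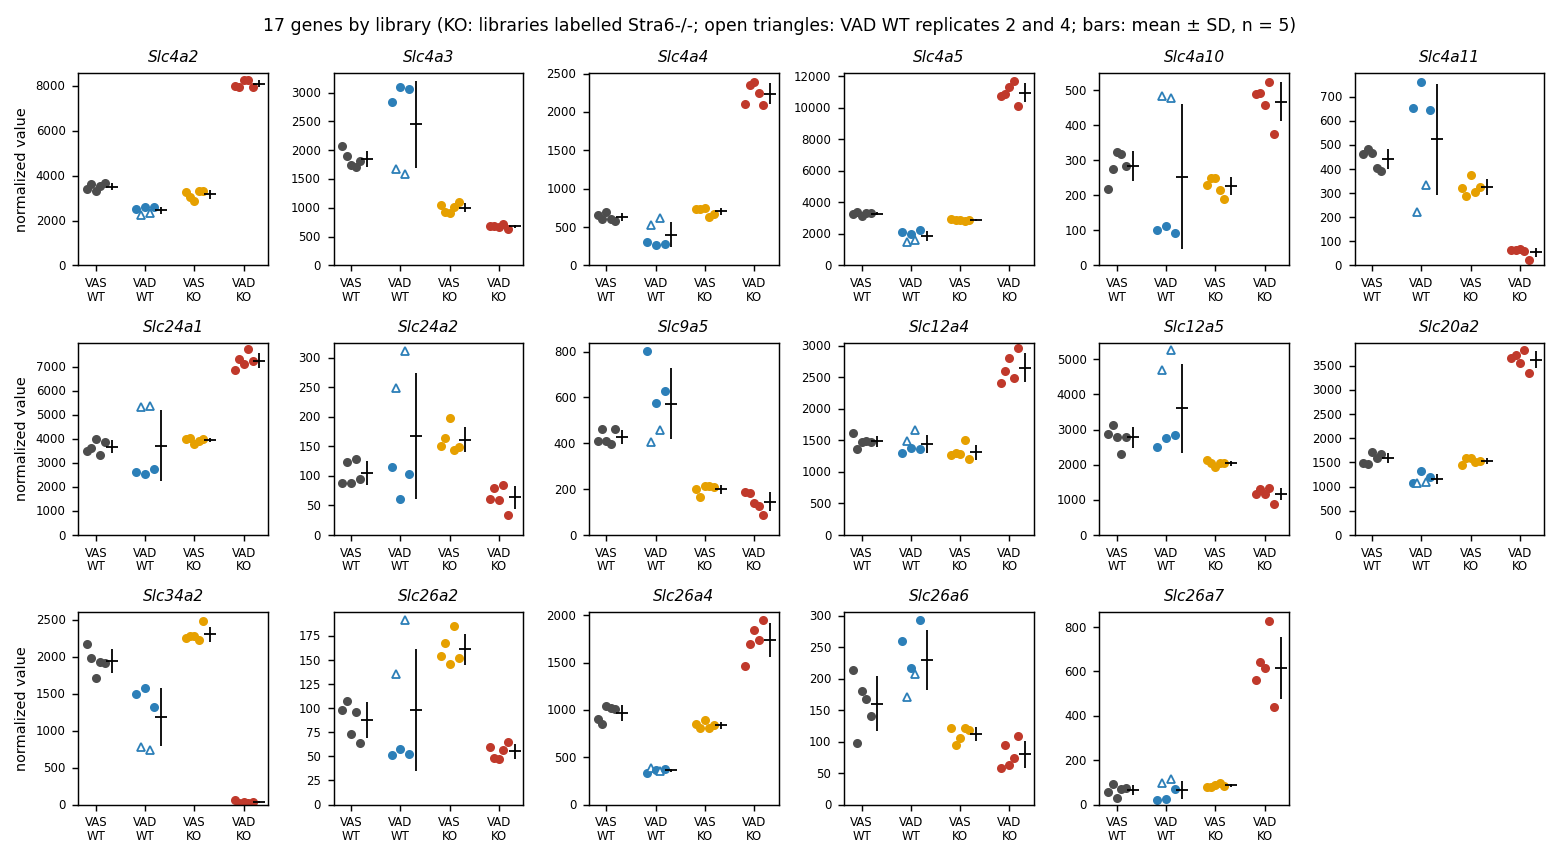
Normalized values of 17 genes in every library, 1 panel per gene with its own linear axis from 0; bars show mean ± SD (n = 5) and open triangles mark replicates 2 and 4 of VAD WT. *Slc4a2*, *Slc4a4*, *Slc4a5*, *Slc20a2*, *Slc26a4* and *Slc26a7* are highest, and *Slc34a2* and *Slc4a11* lowest, in the libraries with the label VAD *Stra6-/-*.

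The VAD and VAS groups differed in opposite directions in the 2 genotypes as labelled for 6 genes. *Slc4a2*, *Slc4a4*, *Slc4a5*, *Slc20a2*, *Slc26a4* and *Slc26a11* fell in VAD WT and rose in the libraries with the label VAD *Stra6-/-*. Of these, *Slc26a11* did not pass in VAD WT without replicates 2 and 4. *Slc4a7*, *Slc12a2* and *Slc34a2* fell in both, *Slc12a9* rose in WT only by this test, and 21 genes passed only in *Stra6-/-*, 10 higher and 11 lower. Over all genes, 2.45% fell in WT and rose in *Stra6-/-*, 2.18% fell in both, and 21.2% passed as higher and 25.1% as lower in *Stra6-/-* only. The difference between the diet effects was itself tested, as an interaction of genotype and diet, and 14 members passed as higher and 12 as lower, beside 19.6% and 24.9% of all genes. Its median over the members was -0.15, where that of all genes was -0.10. In the same fit 6 of 7 RPE markers passed as higher, with a median interaction of 3.69. All 7 surface epithelium markers passed as lower, with a median of -5.31. The part of cell composition in the interactions of the members was not tested. The interaction was 2.45 (SE 0.11, adjusted p = 2.07e-13) for *Slc26a4*, 2.74 (SE 0.12, adjusted p = 1.41e-13) for *Slc4a5*, 2.41 (SE 0.24, adjusted p = 5.13e-08) for *Slc4a4*, 1.86 (SE 0.08, adjusted p = 2.26e-13) for *Slc4a2* and 1.70 (SE 0.10, adjusted p = 5.82e-12) for *Slc20a2*. *Slc34a2* fell more in *Stra6-/-* than in WT, with an interaction of -5.27 (SE 0.29, adjusted p = 4.1e-12). For *Slc12a2*, which fell in both, the interaction was -0.15 (adjusted p = 0.126), and for *Slc12a9* it was -0.43 (adjusted p = 0.0582). Without replicates 2 and 4 of VAD WT, 19 members passed as higher and 16 as lower, among them all 26 that passed before, and the median over the members was 0.36, where that of all genes was -0.06.

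**Figure D4:**
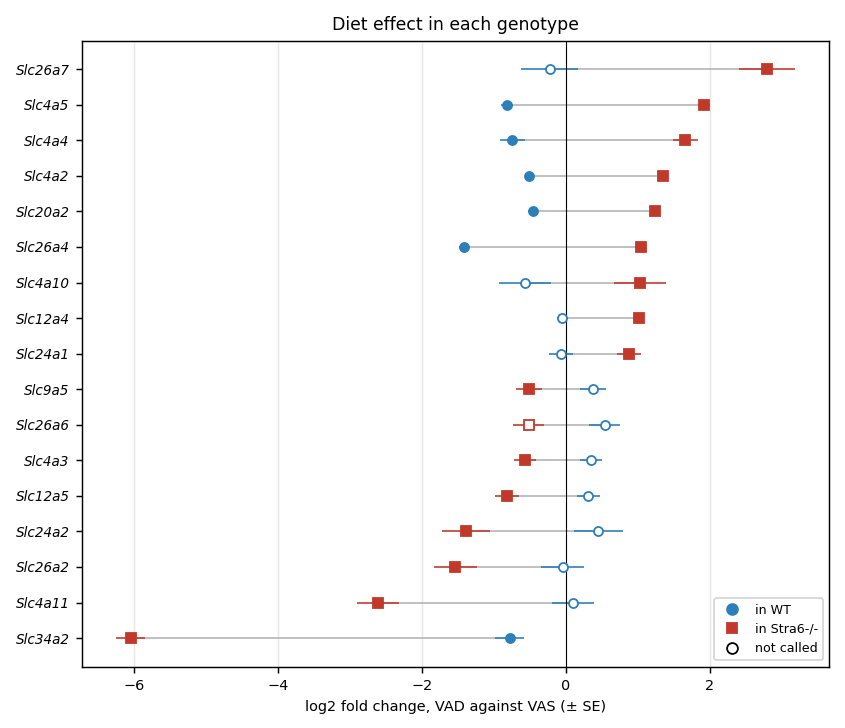
Log2 fold change of VAD against VAS, with its standard error, in WT (circles) and in the libraries labelled *Stra6-/-* (squares) for 17 genes, filled where the adjusted p was under 0.05. *Slc4a5*, *Slc4a4*, *Slc4a2*, *Slc20a2* and *Slc26a4* have filled markers on both sides of 0, and *Slc34a2* has both on the left.

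Markers of other cell types moved with several of these genes. Between the libraries with the label VAD *Stra6-/-* and VAS *Stra6-/-*, 6 of 7 RPE markers rose and all 7 surface epithelium markers fell, with median log2 fold changes of 2.44 and -5.16. Between the libraries with the label VAD *Stra6-/-* and VAD WT, 6 of 7 RPE markers and all 5 skeletal muscle markers were higher, with mean log2 fold changes of 3.48 and 1.77, and 2 of 5 erythrocyte markers were higher. In that comparison all 7 surface epithelium markers, all 6 cone markers, 5 of 6 rod markers and 3 of 5 neuron markers were lower, with medians of -4.81, -4.87, -0.97 and -0.99. In the libraries with the label VAD *Stra6-/-* against VAS *Stra6-/-*, 3 of 6 rod markers and 5 of 6 cone markers fell, and 1 cone marker rose. Between VAD WT and VAS WT, 6 of 7 RPE markers fell, with a median of -1.70, 3 of 7 surface epithelium markers fell, with a median of 0.15 over the 7, and 3 of 5 skeletal muscle markers fell. Between VAS *Stra6-/-* and VAS WT all 6 cone markers fell and all 5 skeletal muscle markers rose, with median log2 fold changes of -2.13 and 1.35. Of 5 neuron markers, 3 fell in the libraries with the label VAD *Stra6-/-* against VAS *Stra6-/-*, where *Slc12a5* fell. Relative to the mean log2 value of the 7 RPE markers, *Slc4a5* differed between the libraries with the label VAD *Stra6-/-* and VAS *Stra6-/-* by -0.05, *Slc4a4* by -0.31, *Slc20a2* by -0.73, *Slc4a2* by -0.62 and *Slc26a4* by -0.93 on the log2 scale, where their own changes were 1.92, 1.67, 1.24, 1.35 and 1.04. *Slc26a7* was higher also relative to these markers, by 0.83. In VAD WT against VAS WT the same ratio changed by -0.04 for *Slc26a4* and by 0.56 for *Slc4a5*. The RPE markers had a mean log2 fold change of -1.37 there, a larger fall than those of *Slc4a4* (-0.74), *Slc4a2* (-0.51) and *Slc20a2* (-0.46). Relative to these markers, *Slc4a4*, *Slc4a2* and *Slc20a2* were thus also higher in VAD WT than in VAS WT. *Slc34a2* differed by -1.15 relative to the mean log2 value of the 7 surface epithelium markers between the libraries with the label VAD *Stra6-/-* and VAS *Stra6-/-*, against -6.05 on its own. The 6 rod markers summed to 72908 to 84391 in the libraries with the label VAD *Stra6-/-*, under the 134463 to 146629 of VAS *Stra6-/-*, while *Slc24a1* was higher there. The part of cell composition in these results was not tested.

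**Figure D5:**
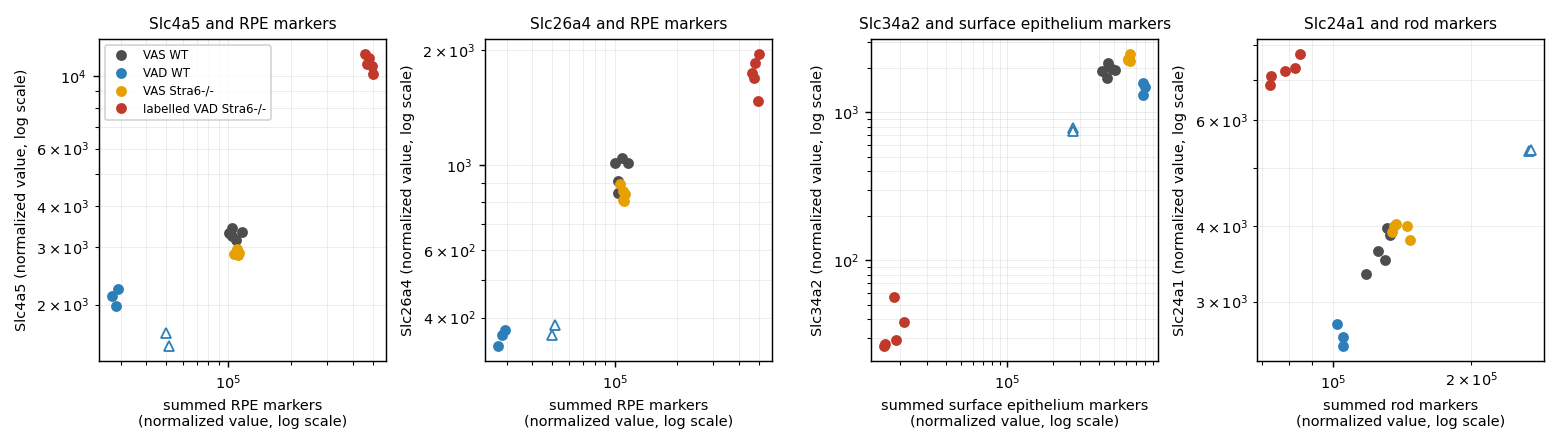
Normalized values of 4 genes against the summed values of a marker list in the same library, both on log axes, 1 point per library and coloured by group, with open triangles for replicates 2 and 4 of VAD WT. The libraries with the label VAD *Stra6-/-* lie at the upper right for *Slc4a5* and *Slc26a4*, at the lower left for *Slc34a2* and at the upper left for *Slc24a1*.

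Genes that work with these carriers were taken as a list of 24: carbonic anhydrases, regulators of bicarbonate and proton carriers, WNK-pathway kinases, and a few related channels and exporters. Of them 9 passed as higher and 10 as lower in the libraries with the label VAD *Stra6-/-* against VAS *Stra6-/-*, 10 and 5 against VAD WT, 11 and 2 in VAS *Stra6-/-* against VAS WT, and 1 and 8 in VAD WT against VAS WT. The shares of all genes passing as higher and as lower were 24.5% and 28.9%, 26.3% and 29.7%, 15.9% and 10.8%, and 3.29% and 5.52% in the same order. The membrane carbonic anhydrases *Car14* and *Car12* rose together. *Car14* had values of 2193, 2306, 2649, 2259 and 2558 in VAS WT and 868, 1465, 705, 1553 and 739.6 in VAD WT. *Car14* was at 2739.5, 2846, 2661, 3129.9 and 2965 in VAS *Stra6-/-* and at 12759, 12209, 12542, 12348 and 12061 in the libraries with the label VAD *Stra6-/-*, a log2 fold change of 2.11 (SE 0.16, adjusted p = 3.95e-10) against VAS *Stra6-/-*. Exons of *Aph1a* on the opposite strand overlap 17.5% of its exon length. *Car12* averaged 1609 ± 33.8, 829 ± 154, 1584 ± 44.7 and 7061 ± 509.6 in the same order, a log2 fold change of 2.15 (SE 0.09, adjusted p = 1.15e-14) for the last pair. Both fell in VAD WT against VAS WT with log2 fold changes of -1.25 (SE 0.16, adjusted p = 2.56e-05) and -0.97 (SE 0.09, adjusted p = 1.88e-07), as *Slc4a5* and *Slc4a4* did. The cytosolic *Car2* averaged 1075 in VAS *Stra6-/-* and 954 in the libraries with the label VAD *Stra6-/-*, with a log2 fold change of -0.17 (adjusted p = 0.301).

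*Chp2*, a cofactor of sodium-proton exchangers, averaged 16.4 ± 9.35 in VAS *Stra6-/-* and 113 ± 17.2 in the libraries with the label VAD *Stra6-/-*, a log2 fold change of 2.84 (SE 0.84, adjusted p = 0.00708). *Ahcyl2*, a relative of the IRBIT protein that binds sodium-bicarbonate cotransporters, averaged 744 in VAD WT and 2817 in the libraries with the label VAD *Stra6-/-*, a log2 fold change of 2.02 (SE 0.18, adjusted p = 2.92e-09). The kinase *Wnk2* went the other way, from 839 ± 60.6 in VAS *Stra6-/-* to 165 ± 31.1 in the libraries with the label VAD *Stra6-/-*, a log2 fold change of -2.35 (SE 0.11, adjusted p = 1.69e-13). It was higher in VAS *Stra6-/-* than in VAS WT, with a log2 fold change of 0.72 (SE 0.11, adjusted p = 6.06e-05).

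The remaining members were low. *Slc4a1* was at 0 to 2.68 in VAS WT and 0 to 52.2 in VAD WT, where its highest values were those of replicates 2 and 4, the libraries with the highest erythrocyte markers. *Slc4a9* reached 35.1 in VAD WT and was at 0 in all libraries with the label VAD *Stra6-/-*, and passed as lower against VAD WT with overlapping values. *Slc12a1* was at 4.09 to 8.06 in the libraries with the label VAD *Stra6-/-* and at 0 in 4 of 5 VAS WT libraries. It passed as higher against VAS *Stra6-/-* and, with overlap, against VAD WT, the latter no longer without replicates 2 and 4. *Slc34a3* was at 3.05 to 10.3 in VAS *Stra6-/-* and at 0 in every VAS WT library and every library with the label VAD *Stra6-/-*, and its differences from VAS *Stra6-/-* passed in both comparisons. *Slc26a9* was at 1.10 to 5.62 in VAS *Stra6-/-* and at or under 1 read in each of the libraries with the label VAD *Stra6-/-*, and passed as lower there. No fold is given for these 5 genes, each of which had 3 reads or fewer in every library of at least 1 group. *Slc26a1*, *Slc26a10* and *Slc9a2* to *Slc9a4* passed in none of the 4 comparisons, and *Slc26a10* shares 17.8% of its exon length with *B4galnt1* on the opposite strand. Smaller overlaps on the opposite strand were 3.48% for *Slc26a1* with *Idua* and 1.53% for *Slc20a2* with *Smim19*.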

How the data were processed

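RNA of 20 mouse RPE-choroid samples was measured, by the study's account from 5 mice per group. Per the labels and the study's methods, reads were aligned to GRCm38 with STAR 2.5.3a and counted with RSEM 1.2.30, and the authors deposited a signal, gene counts divided by 1 DESeq2 1.32.0 size factor per library. Whole reads were recovered from 19 libraries (100.0% of values whole within 0.001) and served count tests with edgeR 4.0.16 and DESeq2 1.42.0 as alternatives, without replicate 1 of the libraries labelled VAD *Stra6-/-*, whose step was too near 1. The main test was limma 3.58.1 (R 4.3.3) on log2(value + 1), with 4 group means, all 20 libraries and Benjamini-Hochberg adjustment over 18745 genes summing to at least 5, of 24411 listed. An adjusted p under 0.05 was a call. P-values measure the spread between libraries, and whether each library is 1 mouse was not tested. The members and all lists were chosen with earlier results of these data known, and some genes of these families are not reported here one by one. Values in every library were given for members that passed in a comparison with a mean of at least 100 in a group, groups that did not overlap and a log2 fold change of at least 1, and the other members by means, ranges or counts. Partner genes were named by the same rule at a log2 fold change of at least 2. Totals of 13331903 to 21878614 reads set the precision, and a floor of 3 reads was used for values near 0. Exon lengths came from GENCODE M21. Each test was checked on simulated counts. The alternatives tried were other scalings, pseudocounts, filters, thresholds, models and left-out libraries.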

Additional observations from a re-analysis of the deposited data

Results flagged for a closer look

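Among 68 sets of 5 libraries, 4 for each of 17 genes, 3 had a library far from the other 4 of its group, where chance gives about 1 in 20. They were *Slc4a11* in replicate 5 of the libraries labelled VAD *Stra6-/-* at 22.8, the lowest of its group, *Slc9a5* in replicate 2 of VAS *Stra6-/-* at 167, the lowest of its group, and *Slc34a2* in replicate 5 of VAS *Stra6-/-* at 2479.7, the highest of its group. The cause of these 3 values was not tested.

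The diet effect differed between genotypes by the interaction test of limma, adjusted over all genes, for all 17 genes given with their values in every library. The diet effect in the libraries labelled *Stra6-/-* minus that in WT, on the log2 scale, was 3.02 for *Slc26a7*, 2.74 for *Slc4a5*, 2.45 for *Slc26a4*, 2.41 for *Slc4a4*, 1.86 for *Slc4a2*, 1.70 for *Slc20a2*, 1.61 for *Slc4a10*, 1.06 for *Slc12a4* and 0.94 for *Slc24a1*. It was -5.27 for *Slc34a2*, -2.71 for *Slc4a11*, -1.84 for *Slc24a2*, -1.50 for *Slc26a2*, -1.13 for *Slc12a5*, -1.06 for *Slc26a6*, -0.92 for *Slc4a3* and -0.89 for *Slc9a5*. That of *Slc4a10* did not pass with edgeR (adjusted p = 0.0789) or DESeq2 (0.0538). These 17 genes had been picked because they passed a pairwise comparison, and the interaction uses the same libraries as those comparisons. The libraries labelled VAD *Stra6-/-* enter every one of these values. Their *Stra6* level was above that of VAD WT, and so was the sum of their RPE markers, at 461320.5 to 502051 against 27312 to 51682.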

How the results depend on the processing

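For the 17 genes given with their values in every library, no log2 fold change that had passed reversed under the alternatives. A reversal was unlikely from the start. The genes had been picked for a log2 fold change of at least 1 without overlap in a comparison, and the alternatives reuse the same libraries. *Slc24a3*, outside these 17 genes, was at -0.60 (adjusted p = 0.0044) in VAD WT against VAS WT without replicates 2 and 4, with the opposite sign to that over all libraries. For single genes, 642 values from alternatives other than a left-out library kept their side of the threshold and 11 lost it, and 1209 and 11 did so over the left-out libraries. The values that lost it were those of *Slc24a2*, *Slc26a2*, *Slc34a2*, *Slc4a10*, *Slc4a4* and *Slc9a5*: *Slc4a4* in VAD WT against VAS WT with only the 2 groups in the fit (adjusted p = 0.155), *Slc34a2* there in the same fit (0.103) and with array quality weights (0.0633), *Slc24a2* between the VAD groups in these 2 fits (0.0556 and 0.0926), and the interaction of *Slc4a10* with edgeR (0.0789) and DESeq2 (0.0538), beside those given with each gene. The cause was not tested.

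Counts of members moved most between the VAS groups and in VAD WT against VAS WT. Between the VAS groups, 11 passed as lower with DESeq2, 5 as higher with a pseudocount of 4, 8 as higher and 13 as lower with only the 2 groups in the fit, 8 and 14 with array quality weights, 7 and 12 without replicates 2 and 4 of VAD WT, 1 and 1 at a log2 fold change beyond 1, and 1 and 0 beyond 2. Over all genes, where 15.9% and 10.8% passed as higher and lower in the fit reported, 12.7% passed as lower with DESeq2, 16.2% as higher with a pseudocount of 4, 24.2% and 19.6% with only the 2 groups, 4649 and 3740 of the 18745 genes with array quality weights, and 22.5% and 17.6% without the 2 replicates. For VAD WT against VAS WT, 2 passed as higher with edgeR and 2 with DESeq2, 0 as higher and 5 as lower with only the 2 groups in the fit, 5 and 14 with array quality weights, 7 and 17 without replicates 2 and 4, 0 and 1 beyond a log2 fold change of 1, and 0 and 0 beyond 2. Over all genes, where 3.29% and 5.52% passed, 3.66% passed as higher with edgeR and 5.65% with DESeq2, 1.03% and 2.33% with only the 2 groups, 12.3% and 14.9% with array quality weights, and 17.7% and 20.4% without replicates 2 and 4. The libraries labelled VAD *Stra6-/-* had 10 higher and 6 lower members beyond 1 and 1 and 3 beyond 2 against VAS *Stra6-/-*, and 9 lower beyond 1 and 4 higher and 3 lower beyond 2 against VAD WT. The interaction had 9 and 7 beyond 1, and 4 and 3 beyond 2. The shares of all genes beyond these 2 cut-offs were not computed. The member counts at these cut-offs, in every comparison, therefore cannot be set beside all genes.

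Leaving out 1 library at a time, members passing as higher ran from 2 to 5 and as lower from 6 to 9 between the VAS groups (5 without replicate 4 of VAD WT), from 0 to 3 and from 7 to 10 for VAD WT against VAS WT (0 without replicate 4 of VAS WT or 5 of VAD WT, 2 without replicate 1 or 4 of VAD WT, 3 without replicate 2), from 14 to 16 and from 12 to 15 for the libraries labelled VAD *Stra6-/-* against VAS *Stra6-/-*, from 14 to 17 and from 14 to 15 against VAD WT, and from 14 to 15 and from 12 to 14 for the interaction. Of all genes, 14% to 17.5% passed as higher and 8.83% to 12.3% as lower between the VAS groups over the same left-out libraries. For VAD WT against VAS WT these shares were 2.35% to 6.31% and 4.34% to 7.9%. The libraries labelled VAD *Stra6-/-* had 23.2% to 25.7% and 27.4% to 29.8% against VAS *Stra6-/-*. Against VAD WT they had 24.9% to 27.6% and 28.4% to 30.5%. The interaction had 18.5% to 21.2% and 23.7% to 26%. The median over the members changed to 0.05 in VAD WT with edgeR and with DESeq2, where that of all genes was also 0.05 in each. Between the VAD groups it changed to 0.39 with array quality weights and 0.23 without replicates 2 and 4, where that of all genes was -0.01 and 0.0. For the interaction it changed to 0.36 without these replicates, where that of all genes was -0.06.

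Replicate numbers did not pair the samples: the deviations of 30 same-numbered pairs correlated between -0.07 and 0.07, and 16 of 60 best matches were with the own number. With the replicate number as a block, 3 higher and 7 lower members passed between the VAS groups, 1 and 8 in VAD WT, 15 and 14 in the libraries labelled VAD *Stra6-/-* against VAS *Stra6-/-*, 16 and 14 against VAD WT, and 14 and 12 for the interaction. Of all genes, 15.4% and 10.3%, 2.74% and 4.97%, 24.3% and 28.7%, 26.1% and 29.5%, and 19.3% and 24.4% passed in the same order. On recovered reads edgeR called 2669 genes higher and 2219 lower between the VAS groups, 686 and 844 in VAD WT, 4428 and 5034 in the libraries labelled VAD *Stra6-/-* against VAS *Stra6-/-*, and 4222 and 5723 against VAD WT. The values of the 8 genes under 1 normalized count per kb in VAS WT rest on few reads, calls included.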
